A study of Mus musculus with 8 samples.

Results

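Small nucleolar RNAs (snoRNAs) were followed in whole hearts of male Hsd:ICR(CD-1) mice without atrial appendages. Hearts came from 4 mice at postnatal day 1 (P1) and 4 mice at postnatal day 7 (P7), no treatment or transgene is named in the labels, and each heart gave 1 library of total RNA depleted of ribosomal RNA. Expression is given as FPKM (fragments scaled to the length of the locus and the size of the library) at 80155 loci in each heart. A locus was a member when its symbol, split at commas, held only names beginning with Snora, Snord or Scarna in any case, and each locus was kept separately. This gave 1398 loci, of which 1019 were H/ACA (Snora), 333 C/D (Snord) and 45 Cajal-body (Scarna) loci, and 1 named an H/ACA and a C/D RNA together. A further 65 loci name a snoRNA together with another gene and were not members.

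snoRNAs are short, stable, noncoding RNAs, most of which are released from the introns of host genes. C/D snoRNAs guide ribose methylation of ribosomal RNA and H/ACA snoRNAs guide its pseudouridylation, while the Cajal-body RNAs guide the same modifications on the spliceosomal snRNAs. A few, among them U8 (Snord118), are needed for cleavage of the ribosomal RNA precursor rather than for its modification.

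Of the 1398 loci, 1246 were matched to a snoRNA gene of GENCODE M21 on the same build (GRCm38), 847 by identical coordinates and the others by symbol or as the only snoRNA gene left in a wider span. The matched genes had a median length of 79 bases among C/D, 130 among H/ACA and 137.5 among Cajal-body loci. The first sequences shown, 5′ to 3′, belong to some of the most abundant loci of each class. SNORD10, the most abundant C/D locus, was not matched to one snoRNA gene and has no sequence here. Capitals mark ACA 3 bases before the 3′ end in H/ACA-type RNAs, and in C/D RNAs the first TGATGA (C box) and a CTGA in the last 15 bases (D box). Of SCARNA7 the first 200 bases are given, without capitals.
SNORA70 (Gm22422, chr16:56035753-56035887, minus strand): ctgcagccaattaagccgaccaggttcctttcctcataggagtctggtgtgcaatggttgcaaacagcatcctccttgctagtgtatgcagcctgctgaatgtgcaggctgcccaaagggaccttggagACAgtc
Snord17 (chr2:144265979-144266216, minus strand): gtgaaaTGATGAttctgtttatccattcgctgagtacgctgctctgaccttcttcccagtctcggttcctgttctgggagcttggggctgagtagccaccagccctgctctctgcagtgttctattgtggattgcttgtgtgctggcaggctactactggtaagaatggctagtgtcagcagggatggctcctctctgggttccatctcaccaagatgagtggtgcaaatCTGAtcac
SCARNA20 (Gm25492, chr5:135053988-135054116, minus strand): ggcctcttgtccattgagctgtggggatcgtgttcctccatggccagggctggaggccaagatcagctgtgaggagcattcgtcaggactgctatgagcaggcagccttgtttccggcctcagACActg
SCARNA7 (Gm22009, chr3:69085248-69085447, minus strand): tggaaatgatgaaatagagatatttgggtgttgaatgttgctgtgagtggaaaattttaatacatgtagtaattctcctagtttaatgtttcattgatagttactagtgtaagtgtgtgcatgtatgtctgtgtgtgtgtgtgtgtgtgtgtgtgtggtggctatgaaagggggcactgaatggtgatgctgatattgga

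The next 4 sequences are those given to the loci that were called different between the stages, described further on. That of SNORA42 is the only snoRNA gene in a span that 2 loci share, so it may belong to the other locus. The last sequence belongs to a copy of SNORA17, the commonest symbol of the list. This copy has no ACA at its end.
SNORA32 (Gm24355, chr6:52639234-52639355, minus strand): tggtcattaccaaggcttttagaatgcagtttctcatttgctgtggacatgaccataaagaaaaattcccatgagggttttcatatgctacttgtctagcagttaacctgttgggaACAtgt
SNORA42 (Gm26286, chr5:100831281-100831414, plus strand): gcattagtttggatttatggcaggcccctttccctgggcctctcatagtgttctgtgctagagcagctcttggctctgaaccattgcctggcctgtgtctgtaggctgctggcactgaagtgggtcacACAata
Snord118 (chr11:69073427-69073561, plus strand): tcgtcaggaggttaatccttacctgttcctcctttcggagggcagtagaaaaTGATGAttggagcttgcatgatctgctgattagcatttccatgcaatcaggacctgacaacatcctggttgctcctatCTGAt
SNORD113 (Gm23787, chr12:109684962-109685034, plus strand): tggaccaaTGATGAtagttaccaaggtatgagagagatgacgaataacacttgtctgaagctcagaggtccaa
SNORA17 (Gm25161, chr6:46481709-46481840, minus strand): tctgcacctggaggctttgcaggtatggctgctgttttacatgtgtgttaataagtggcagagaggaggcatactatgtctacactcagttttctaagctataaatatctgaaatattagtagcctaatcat

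Most snoRNA loci were listed at 0. In all 8 hearts together 1165 loci (83.3%) had no signal, 85 were above 0 in 1 heart only, and 76 (5.44%) were above 0 in every heart, 38 of them matched to a snoRNA gene and 38 not. Among all annotated loci 50.0% were above 0 in every heart. Of the 3877 other annotated loci with a span of at most 500 bases 3.48% were, against 1 of 852 snoRNA loci (0.117%) with such a span. The share varied with the class. Of the 333 C/D loci 318 (95.5%) were at 0 in all hearts, of the 1019 H/ACA loci 824 (80.9%), and of the 45 Cajal-body loci 23 (51.1%). The loci above 0 in every heart numbered 9 C/D (2.70%), 54 H/ACA (5.30%) and 12 Cajal-body loci (26.7%). A listed 0 may be a failed estimate. Of 15 abundant genes checked, such as Actb and Tnnt2, 0 had a listed 0 in any heart.

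The zero counts were nearly the same in each heart. Among H/ACA loci 922, 925, 917 and 935 were at 0 in the P1 hearts and 917, 925, 925 and 934 in the P7 hearts. Among C/D loci the counts were 320, 319, 319 and 321 in P1 and 321, 321, 322 and 321 in P7. Among Cajal-body loci they were 28, 30, 28 and 31 in P1 and 30, 28, 30 and 32 in P7. The stages overlapped in the H/ACA and Cajal-body classes, and in the C/D class they met at 321. The heart labelled P1 replicate 4 had the most zeros of the P1 hearts in all 3 classes.

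Detection varied with the length of the RNA. Of 327 matched loci under 100 bases 4 (1.22%) were above 0 in any heart, against 87 of 456 (19.1%) from 130 to under 140 bases and 14 of 26 (53.8%) at 160 bases and over. In that longest group 12 loci (46.2%) were above 0 in every heart. Of the 282 matched C/D loci 271 were under 100 bases. At that length 3 of 271 C/D loci (1.11%) and 1 of 51 H/ACA loci (1.96%) were above 0 in any heart, and at 100 bases and over 6 of 11 C/D loci (54.5%), 136 of 873 H/ACA loci (15.6%) and 19 of 35 Cajal-body loci (54.3%). The one C/D locus of at least 160 bases, Snord17, was above 0 in every heart.

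**Figure D1:**
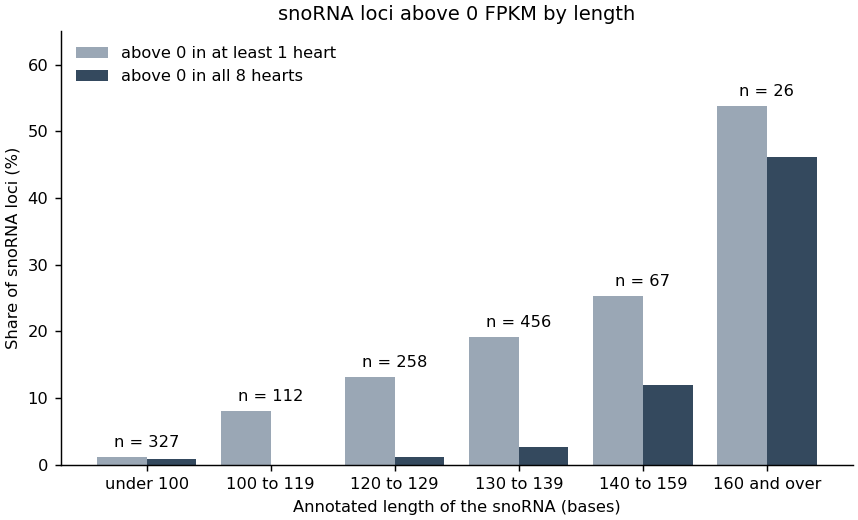
Share of the 1246 matched snoRNA loci (vertical axis, percent) above 0 FPKM in at least 1 heart (light bars) and in all 8 hearts (dark bars), by annotated length in bases (horizontal axis), with the number of loci above each pair. The light bars climb from 1.22% under 100 bases to 53.8% at 160 bases and over.

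A locus whose span in the files is that of the RNA itself (852 loci with a span of at most 500 bases) almost never had signal. Of these, 29 were above 0 in any heart, 27 of them H/ACA loci seen in 1 heart each. The other 2 were Snord118, in 3 hearts, and Scarna2, a Cajal-body RNA transcribed from its own gene, in all 8. Of the 546 loci listed under the wider span of a group of overlapping transcripts, 204 were above 0 in at least 1 heart and 75 in every heart. The span given for such a locus is that of the group, so it does not show where its fragments lie.

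The low values came in steps. Within a heart, loci of the same length had values that were multiples of one smallest value, taken here as the FPKM of 1 fragment. From 120 to 150 bases, snoRNA and other short annotated loci had 406 values of up to 8 steps, and 335 of them (82.5%) were within 1% of a whole number. One step was worth 20.5 to 42.5 FPKM for an RNA of 120 bases and 5.72 to 12.04 FPKM at 140 bases, depending on the heart. P1 replicate 4 had the largest step. Of the 440 values above 0 of matched snoRNA loci in this range 152 (34.5%) were 1 step and 227 (51.6%) were 1 to 3 steps. A listed 0 at 130 bases therefore allows 29.99 to 61.97 FPKM, the worth of 3 fragments in the different hearts, and this covers counting error only. Another 52 values (11.8%) lay under 0.9 of 1 step, which is less than 1 fragment of the annotated length would give.

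**Figure D2:**
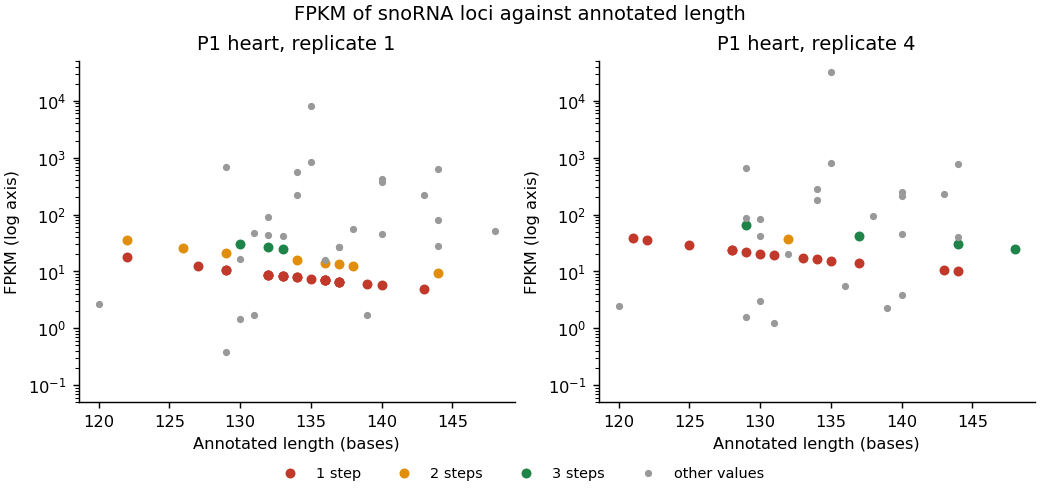
FPKM (vertical axis, log scale) of tested snoRNA loci against annotated length in bases (horizontal axis) in the P1 hearts of replicates 1 and 4, with values of 1, 2 and 3 steps in colour and other values in grey. Values of 1 step form a line that falls with length, at 5.72 FPKM for 140 bases in replicate 1 and 12.04 FPKM in replicate 4.

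Few symbols made up most of the list. SNORA17 named 627 loci (44.8%), of which 64 were above 0 in any heart and 15 in every heart. SNORD115 named 137 loci and SNORD116 named 71. These C/D families are copied in tandem in the imprinted Prader-Willi region and are known for expression in neurons. All 137 SNORD115 loci were at 0 in all 8 hearts, and 1 SNORD116 locus (XLOC_066497) was above 0, at 0.29, 0.53, 0.37 and 0.13 FPKM in P1 and 0.03, 0.36, 0.00 and 0.21 in P7. That locus spans chr7:59767307-59769574 around a snoRNA gene of 94 bases, and which of them gave its fragments cannot be told apart. The genes of both families are under 100 bases, a length at which 3 of 271 matched C/D loci of any symbol were above 0. The part of length in these zeros was not tested. The neuronal markers Snap25, Syt1 and Rbfox3 together summed to 0.573 to 1.48 FPKM at P1 and 0.0926 to 0.816 at P7. SNORA70 named 43 loci with 9 above 0, and SNORA48 named 29 with 5 above 0. Copies with identical sequence cannot be told apart by their reads. The 137 SNORD115 genes have 57 distinct sequences, 1 of them in 33 copies, while the 584 matched SNORA17 genes have 578.

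The 3′ end of the H/ACA sequences varied with detection. An ACA 3 bases before the 3′ end is the defining box of the family, and it was searched on the RNA strand only. It was there in 202 of the 924 matched H/ACA genes (21.9%), in 133 of the 787 that were at 0 in every heart (16.9%) and in 18 of the 25 above 0 in every heart (72.0%). Read the other way, 69 of the 202 genes with the ACA (34.2%) and 68 of the 722 without it (9.42%) were above 0 in at least 1 heart. Much of the second group was SNORA17, in which 1 of 584 genes had the ACA. With SNORA17 left out, the shares were 69 of 201 (34.3%) and 26 of 139 (18.7%). The gap was not seen at every length. Without SNORA17 the shares were 35.0% of 40 with the ACA and 16.3% of 43 without it from 120 to under 130 bases, and 46.3% of 95 and 19.4% of 36 from 130 to under 140 bases. They were close to each other at 5.26% of 19 and 5.88% of 17 from 100 to under 120 bases, and at 7 of 24 and 6 of 24 from 140 to under 160 bases. The order was the opposite at 160 bases and over, with 3 of 10 and 4 of 6, and under 100 bases, with 0 of 13 and 1 of 13. The absence of the letters says only that they are not at this place of the annotated gene. TGATGA in the first 20 bases together with CTGA in the last 15 was found in 226 of the 282 matched C/D genes (80.1%), and in 219 of the 273 at 0 in every heart (80.2%).

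A small number of loci carried nearly all of the signal. The most abundant was SNORA70 XLOC_028862, inside the Trmt10c locus, with 7963, 9309, 9571 and 31998 FPKM in the P1 hearts and 24915, 8368, 22538 and 7395 FPKM in the P7 hearts. It held 50.8% to 87.2% of the summed FPKM of all H/ACA loci. P1 replicate 4, P7 replicate 1 and P7 replicate 3 stood well above the other 5 hearts and the stages overlapped (difference P7 minus P1 of 0.15 on the log2(FPKM + 1) scale, SE 0.52, limma adjusted p = 0.869). These 3 hearts also had the most zeros over all 80155 loci, 26.5% to 32.6% against 15.7% to 24.1% in the others, and the part of this in the SNORA70 values was not tested.

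Other H/ACA loci followed at a distance. Snora74a, inside a Matr3 locus, had 918, 1093, 2210 and 314 FPKM in P1 and 1044, 1874, 751 and 934 in P7. SNORA22, in a Cct6a locus, had 829.7, 1227, 1044 and 819.7 in P1 and 1600.2, 835, 849 and 604 in P7. SNORA79 XLOC_028592 (Fbxo45 locus) and SNORA14 XLOC_071285 (Tomm20 locus) had means of 697 and 631 FPKM over the 8 hearts. In none of these did the stages separate (limma adjusted p 0.441 to 0.996).

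The C/D class rested on SNORD10, a locus inside the Eif4a1 group that was not matched to one snoRNA gene, with 684, 908, 2067 and 331 FPKM in P1 and 615, 1091, 757 and 530 in P7. It held 39.2% to 90.5% of the summed C/D FPKM. Snord8, in the Chd8 locus, was above 0 in 3 hearts, at 106 and 420 FPKM in P1 replicates 2 and 4 and at 302 in P7 replicate 1. Its gene has 110 bases, below the range in which steps were fitted, so no steps are given. At 120 bases 1 step was already worth 28.7, 42.5 and 33.0 FPKM in these hearts. Snord17, in the Snx5 locus, had 67.1, 68.5, 158 and 38.5 FPKM in P1 and 62.6, 61.4, 67.9 and 43.4 in P7. Snord15a, in the Rps3 locus, had 51.9, 60.6, 106 and 25.3 in P1 against 0, 16.7, 17.8 and 45.5 in P7, which are 13.01, 10.98, 23.7 and 3.0 steps against 0, 4.0, 3.0 and 8.0. The P7 values were lower in 3 hearts, but P7 replicate 4 lay within the P1 range (limma adjusted p = 0.191). SNORD94 (Ptcd3 locus) ranged from 0 to 67.8 FPKM. Among member loci the well-known C/D symbols Snord13, Snord14a, SNORD22, SNORD33, Snord35a, Snord49a and Snord49b were each carried by 1 locus, at 0 in every heart. The SNORD22 locus is on chromosome 3 and the SNORD33 locus on chromosome 5, neither inside a host locus, and their zeros hold for these loci only. A Snord33 listed together with Rpl13a was not a member. Snord87 was carried by 2 loci, of which 1 was at 0 in every heart and the other (XLOC_002800, in the 6030422M02Rik locus) had 8.33, 8.15, 16.4 and 13.6 FPKM in P1 and 25.9, 15.3, 14.1 and 14.9 in P7, with the stages overlapping.

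The Cajal-body RNAs were the class seen most regularly. Scarna10, in the Ncapd2 locus, had 1964, 1628, 2832 and 825 FPKM in P1 and 2714, 3187, 2424 and 2265 in P7. SCARNA7, in the Kpna4 locus, had 1145, 836, 1549 and 484 in P1 and 1955, 1790, 1683 and 1755 in P7, so that every P7 heart lay above every P1 heart. The difference was 0.96 (SE 0.32) on the log2(FPKM + 1) scale, with a limma adjusted p of 0.126, which missed the threshold. Over 18 other fits the limma adjusted p was 0.0377 to 0.314, and SCARNA7 was called in 2 of them, with sample quality weights (0.0377) and among loci of at least 1 FPKM in every heart (0.0491). SCARNA20 (Wbscr22 locus) had a mean of 1068 ± 459.6 FPKM at P1 against 894 ± 279.7 at P7, each over 4 hearts with the SD. By the same measure Scarna13 had 263 ± 80.9 against 305 ± 89.9, and Scarna2 had 149.5 ± 64.8 against 191 ± 42.8. The Scarna13 and Scarna2 stages overlapped.

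**Figure D3:**
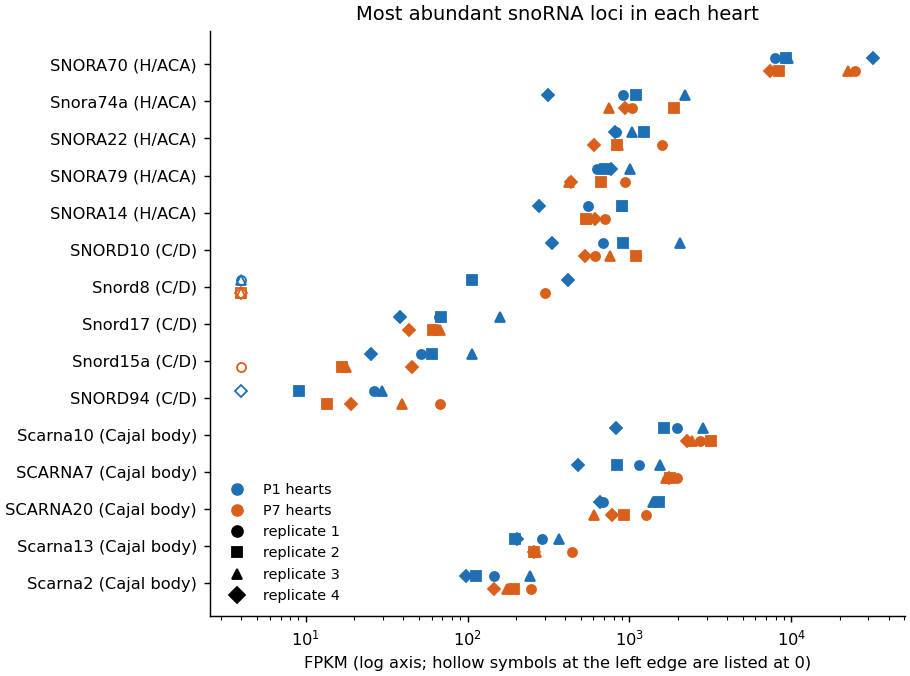
FPKM in each heart (horizontal axis, log scale) of the 5 snoRNA loci with the highest mean in each class (rows), P1 hearts in blue and P7 hearts in orange, with a symbol shape for each replicate and hollow symbols for values listed at 0. SCARNA7 is the row in which all P7 hearts lie above all P1 hearts, and SNORA70 splits into 3 high and 5 low hearts that come from both stages.

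Summed over a class, the H/ACA loci gave 13902 to 36683 FPKM at P1 and 12468 to 32495 at P7. The C/D loci gave 846 to 2495 and 664 to 1206, and the Cajal-body loci 2489 to 7022 and 5411 to 6936. The ranges of the stages overlapped in each class. All snoRNA loci together made up 1.58% to 3.83% of all FPKM at P1 and 0.868% to 3.59% at P7. The lowest share was that of P7 replicate 4, whose FPKM of all loci summed to 2136937 against 1038650 to 1400587 in the other hearts, and without it the P7 hearts had 1.84% to 3.59%.

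The hearts differed from each other in a way shared by many loci. Among the 33 loci above 0 in every heart with a mean of at least 20 FPKM, P1 replicate 3 was the highest heart for 17 and P1 replicate 4 the lowest for 13. The median deviation from the mean of the 8 hearts was 0.62 on the log2 scale in P1 replicate 3 and −0.53 in P1 replicate 4, and between −0.32 and 0.16 in the other 6. Over all 76 snoRNA loci above 0 in every heart it was 0.29 in P1 replicate 3 and −0.08 in P1 replicate 4. The other annotated loci above 0 in every heart, with no limit on the mean, went the opposite way, with −0.32 in P1 replicate 3 and 0.22 in P1 replicate 4. The unannotated loci above 0 in every heart had 0.61 and −0.09 in these hearts. P1 replicate 3 also had 14206 unannotated loci of at least 1 FPKM, against 4914 to 7513 in the others. The part of these differences in the comparison of the stages was not tested beyond leaving the hearts out.

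Some abundant snoRNA loci stood far above the genes that contain them. Of the 1398 loci, 522 lay inside one of 432 annotated host loci. Of the 60 that were above 0 in every heart and had a tested host, 21 had a higher mean FPKM than their host and 11 were at least 10 times higher. SNORA70 had a mean of 15257 FPKM and Trmt10c 12.7, Scarna10 had 2230 and Ncapd2 4.27, and SCARNA7 had 1400 and Kpna4 22.7. Among the 5 highest C/D loci, SNORD10 had 873 and its Eif4a1 locus 569, Snord8 103 and Chd8 10.95, and Snord17 70.9 and Snx5 50.0. Snord15a had 40.5 and its Rps3 locus 925, and SNORD94 had 25.7 and Ptcd3 32.7. FPKM divides by length, and for an RNA this short 1 fragment weighs heavily, so that these ratios are not ratios of molecules. Between the stages the members and hosts gave differences of the same sign in 32 of the 60. The median difference was −0.10 for the snoRNA loci and 0.11 for the hosts, and across these loci, which share the same hearts and are not replicates, the correlation was weak (Spearman's rho = 0.12). SCARNA7, at 0.96, stood over a Kpna4 difference of 0.13.

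The comparison of P7 with P1 hearts asked which snoRNA loci changed during the first postnatal week. A locus was tested when it had at least 1 FPKM in at least 1 heart, which 230 of the 1398 loci passed (193 H/ACA, 14 C/D, 22 Cajal-body and the mixed locus). The fit was limma on log2(FPKM + 1) over all 43172 loci that passed, and a locus was called when its p, adjusted after Benjamini and Hochberg over all of them, was under 0.05 and the stage means differed at least 1.5-fold. In all, 4 of the 230 snoRNA loci were called (1.74%), against a background of 3.82% of all tested loci. One was higher in P7 (SNORA42, background 3.45%) and 3 were lower (SNORA32, SNORD113 and Snord118, background 0.371%). By class these were 2 of 193 H/ACA and 2 of 14 C/D loci. Of the 22 Cajal-body loci 0 were called by limma, and 2 had an unadjusted p under 0.05. Over all classes 33 snoRNA loci (14.3%) had an unadjusted p under 0.05, against 18.5% of all tested loci. The median difference was −0.09 for the 230 loci and −0.08 for all tested loci.

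SNORA32 XLOC_060752, an H/ACA locus inside Hibadh, had 35.5, 24.4, 60.1 and 36.1 FPKM in the P1 hearts and 0, 17.7, 0 and 0 in the P7 hearts. Every P1 heart lay above every P7 heart in FPKM. In steps the values were 2.0, 1.0, 3.0 and 1.0 in P1 and 0, 1.0, 0 and 0 in P7, so that a few fragments carry the difference and the stages meet at 1.0 step, which was worth more FPKM in P1 replicates 2 and 4 than in P7 replicate 2. It was −4.20 (SE 0.77) on the log2(FPKM + 1) scale with a limma adjusted p of 0.0162, and the size depends on the pseudocount. Hibadh itself, with a mean of 61.4 FPKM, differed by 0.02.

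Snord118, the U8 RNA, had 7.41, 10.1, 8.22 and 0 FPKM in P1 and was listed at 0 in all 4 P7 hearts. The 3 values were 1.0 step each (limma difference −2.44, SE 0.59, adjusted p = 0.0398). SNORA42 XLOC_054742 was the mirror image, listed at 0 in all 4 P1 hearts and at 13.2, 7.95, 11.7 and 0 in P7 (difference 2.66, SE 0.64, adjusted p = 0.0398). Its 3 values were 1.0 step for 134 bases, the length of Gm26286, the only snoRNA gene in its span, which 2 loci share. In both loci 1 heart of the stage with signal was at 0, so the stages met there, and no fold is given against a group at 0.

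SNORD113 XLOC_015164 was of another kind. It lies on chromosome 12 in the imprinted Dlk1-Dio3 region, whose maternal transcripts carry tandem C/D snoRNAs. Its values were 3.06, 3.00, 3.54 and 3.49 FPKM in P1 and 1.70, 0.956, 1.88 and 1.53 in P7, with every P7 heart below every P1 heart (difference −0.78, SE 0.19, limma adjusted p = 0.0391). The means of the stages, over 4 hearts each with the SD, were 3.27 ± 0.282 and 1.52 ± 0.399. The locus spans 2808 bases around a snoRNA gene of 73 bases, and whether its fragments came from the snoRNA or from the longer transcript cannot be told apart. The other 12 SNORD113 loci were at 0 in every heart.

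The calls moved with the hearts. SNORA32 kept its call in 12 of the 17 other fits that tested these loci, SNORD113 in 6, Snord118 in 5 and SNORA42 in 3. A filter of at least 1 FPKM in every heart left all 4 untested. Leaving out P1 replicate 3, P7 replicate 1 or P7 replicate 3 left 0 called snoRNA loci in each case. Over all tested loci these fits called 490 of 34934, 346 of 41956 and 321 of 42603, against 1650 of 43172 with all hearts. Without P1 replicates 3 and 4 together 4 snoRNA loci were called, of which only Snord118 was among the first 4. Over all tested loci that fit called 873 of 33206.

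**Figure D4:**
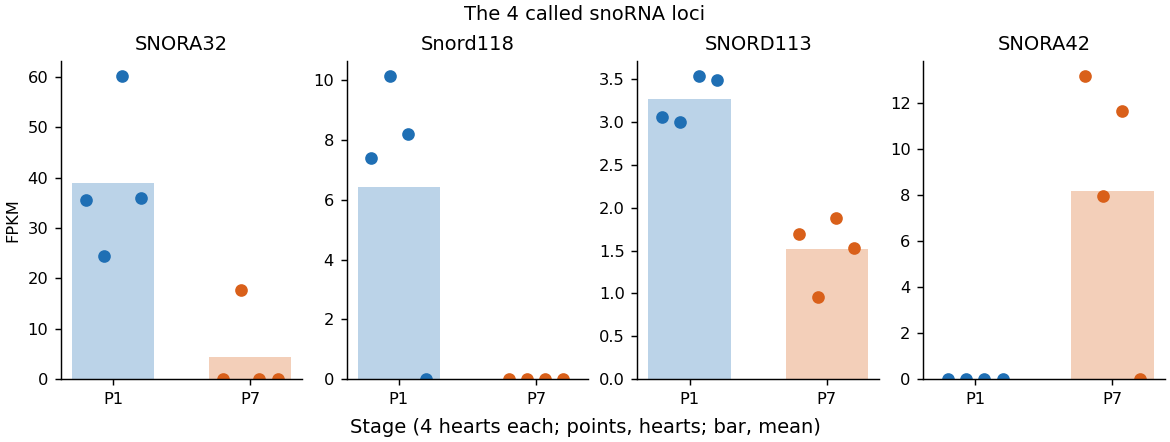
FPKM (vertical axes, each from 0 with its own range) of the 4 called snoRNA loci in P1 and P7 hearts (horizontal axes), with 1 point per heart and bars for the mean of 4 hearts. SNORA32, Snord118 and SNORD113 are lower in P7 and SNORA42 is higher, and only SNORA32 and SNORD113 have stages that do not overlap in FPKM, with SNORA32 meeting at 1.0 step in number of fragments.

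In 7 of the 230 tested snoRNA loci (3.04%) the 4 hearts of one stage lay above the 4 of the other, against 12.5% of all tested loci. Of these, 3 were higher in P7 (background 8.5%) and 4 lower (background 4.03%). Beside SCARNA7, SNORA32 and SNORD113 they were SNORA2 XLOC_017796 and 3 SNORA17 loci of low level. SNORA2, an H/ACA locus inside Cks2, had 7.01, 9.60, 0 and 0 FPKM in P1 and 11.9, 21.4, 10.4 and 20.1 in P7, at most 3.0 steps (limma adjusted p = 0.0725). SNORA17 XLOC_014812, in the Rgs6 locus, had 1.88, 1.68, 1.95 and 2.52 FPKM in P1 and 1.26, 1.30, 1.14 and 1.21 in P7 (limma adjusted p = 0.218). SNORA17 XLOC_061402 had 0.637 to 1.07 FPKM in P1 and 0.239 to 0.518 in P7. SNORA17 XLOC_047529 had 0.123 to 0.503 FPKM in P1 and 0.620 to 1.52 in P7. All 3 lie in wider spans and none could be matched to one snoRNA gene. Steps were available for XLOC_014812 and XLOC_047529, by the length of the only unassigned snoRNA gene in the span, which other loci share. The values were 0.112 to 0.283 of 1 step in XLOC_014812 and 0.012 to 0.103 in XLOC_047529. This is less than 1 fragment of that length would give.

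**Figure D5:**
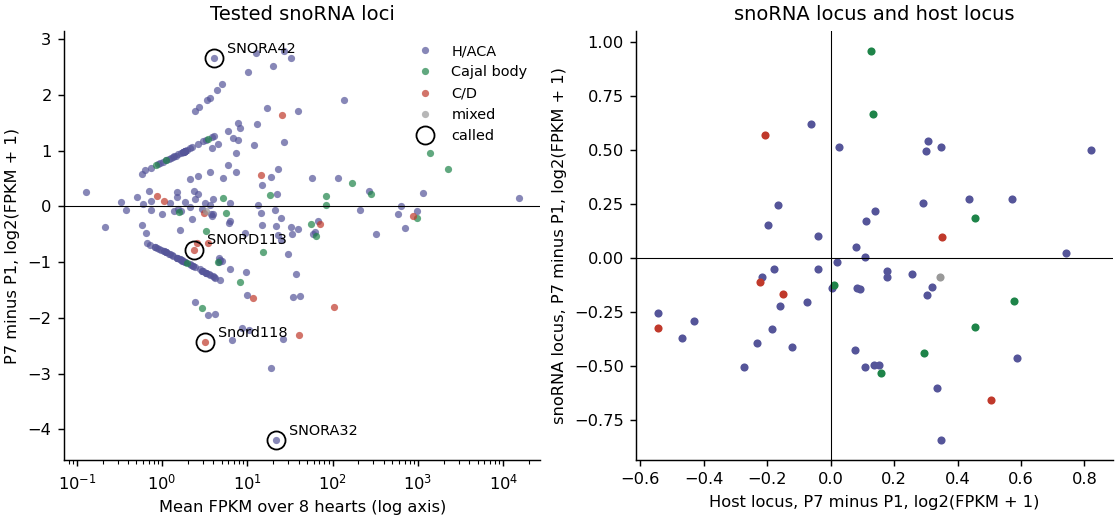
Left, P7 minus P1 difference in log2(FPKM + 1) (vertical axis) against the mean FPKM over 8 hearts (horizontal axis, log scale) of the 230 tested snoRNA loci, coloured by class, with the 4 called loci circled. Right, the same difference of 60 snoRNA loci above 0 in every heart (vertical axis) against that of their host loci (horizontal axis). The curved bands at low mean on the left are loci above 0 in a single heart, and the points on the right are scattered over all 4 quadrants.

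The proteins that build snoRNA particles are encoded by longer transcripts, in which 1 fragment weighs less. Of 29 genes in a list of core, assembly, Cajal-body and U3-particle proteins, all were tested and 0 were called by limma. An unadjusted p under 0.05 was found for 8 of them (27.6%, against 18.5% of all tested loci), and the stages did not overlap in 4 (13.8%, against 12.5%), while 3.82% of all tested loci were called. Of the differences 14 were negative and 15 positive, and the median was 0.0049. Among the C/D core proteins Nop58 had 29.7, 31.6, 28.3 and 35.9 FPKM in P1 and 16.1, 17.1, 23.5 and 19.6 in P7, with no overlap (difference −0.70, SE 0.18, limma adjusted p = 0.057). Fibrillarin (Fbl), the methyltransferase, averaged 14.4 ± 1.18 FPKM at P1 against 14.2 ± 2.96 at P7 (SD over 4 hearts). Of the H/ACA core, the pseudouridine synthase Dkc1 had 17.4 to 23.0 FPKM in P1 and 10.9 to 16.3 in P7, and Nhp2 had 8.71 to 13.3 in P1 and 14.4 to 20.9 in P7, both without overlap and without a call. Ruvbl2, an assembly ATPase, had 4.65 to 8.0 in P1 and 8.71 to 16.7 in P7 (difference 0.78, SE 0.23, adjusted p = 0.0844).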

How the data were processed

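RNA-seq libraries were made from 8 mouse hearts, 4 at each stage. Per the labels and the study's methods, paired reads were aligned to GRCm38 by a provider, assigned to features of an Ensembl annotation and scaled, and the authors deposited FPKM per locus. The aligner is not given in the sources used here. The deposited values hold no fragment counts, and the depth of each heart was followed here only through the value of 1 step. The study reports its total of reads and lists a mapping summary for each sample, which was not used here.

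Every locus that reached 1 FPKM in any heart was compared as log2(FPKM + 1) with limma 3.58.1 in R 4.3.3 (lmFit, eBayes with trend, no covariates), which understates changes of low loci. P-values were adjusted by Benjamini-Hochberg over all 43172 loci. Nothing says whether hearts share a litter. The p-values measure the spread between these hearts and may not cover differences between litters. Steps were fitted per heart as FPKM against length from 120 to 150 bases. Both scripts were tested on simulated data. Python 3.11.15, pandas 2.3.3 and numpy 2.4.6 were used.

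Named were called loci, the 5 highest means per class, well-known symbols, the most frequent symbols, and loci above 0 in every heart without overlap; the 5 widest spans, also fixed, are only partly reported, with 2 of them above 0 in any heart. Members and lists were chosen with earlier results of these data known. Alternatives covered the pseudocount, filter, scaling, block, weights, trend and each heart left out. The sequence of 1 abundant locus is not reported here.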

Additional observations from a re-analysis of the deposited data

Results flagged for a closer look

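Each named locus, snoRNA-particle gene and class value was searched for a single heart far from the other 3 of its stage, by the ratio of its gap to the whole range. Of 122 groups of 4 hearts, 8 passed Dixon's critical value, where chance gives about 1 in 20 if values are normally distributed. A group with 3 equal values and a different one always has a ratio of 1.0 and passes. Snord8, SNORA32, SNORA17 and the share of C/D loci at 0 were such groups.

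SNORA70 XLOC_028862 had 31998 FPKM in P1 replicate 4, against 7963 to 9571 in the other P1 hearts. Scarna13 XLOC_016723 had 440.2 FPKM in P7 replicate 1, against 257 to 266. The next values were the only ones above 0 in their stage, so that the others were listed at 0. These were Snord8 XLOC_022890 with 302 FPKM in P7 replicate 1, SNORA32 XLOC_060752 with 17.7 FPKM in P7 replicate 2, and SNORA17 XLOC_055867, in the Magi2 locus, with 17.0 FPKM in P7 replicate 3. The last 2 were 1.0 step each.

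Nop56, a core protein of C/D particles, had 31.5 FPKM in P7 replicate 3, against 10.01 to 13.3 in the other P7 hearts. Rrp9, a protein of the U3 particle, had 10.2 FPKM in P1 replicate 4, against 5.01 to 5.81. The share of C/D loci at 0 was 96.7% in P7 replicate 3 and 96.4% in the other P7 hearts, a difference of 1 locus.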

How the results depend on the processing

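The number of called snoRNA loci, 4, fell to 0 with no filter on low values, where 1398 loci were tested, to 1 without the trend in eBayes and to 2 with scaling to the total of loci over 500 bases (added after seeing the data), and rose to 11 with sample quality weights. It ranged from 0 to 6 when each heart was left out in turn, with 0 when P1 replicate 3 or the P7 hearts 1 or 3 were left out, 1 for P7 replicate 2, and 2 for P1 replicates 1 and 2. Among loci with a span of at most 500 bases, with a symbol of their own or with a mouse-style symbol 1 was called, Snord118. With the replicate number as a block 11 were called, against 1283 of 43172 over all tested loci, but the numbers do not pair the hearts. The correlation of same-numbered deviations was 0.058, 0.22, −0.28 and −0.12.

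The median difference of −0.09 became 0.00 with no filter, −0.29 with median-ratio scaling, −0.20 with quantile normalization and 0.12 without P1 replicates 3 and 4 together, and ranged from −0.25 to −0.015 with each heart left out. Over all tested loci the median of −0.08 became −0.07 with no filter, −0.25 with median-ratio scaling and −0.04 with quantile normalization. It was 0.09 without P1 replicates 3 and 4 together, and ranged from −0.099 to 0.012 with each heart left out. The cause of these moves was not tested. The number of loci above 0 in every heart, 76, became 1 for spans of at most 500 bases and 15 for mouse-style symbols. The mean share at 0 moved from 90.8% to 99.4% of H/ACA, from 96.2% to 99.8% of C/D and from 65.8% to 91.7% of Cajal-body loci for spans of at most 500 bases, and to 91.9% of H/ACA and 96.9% of C/D loci when values under 1 FPKM were counted. Without the highest locus, the mean summed FPKM of H/ACA loci was 6705 in P1 and 6278 in P7, that of C/D loci 349 and 218, and that of Cajal-body loci 2864 and 3525. Of the values of single named loci, 6 gained and 40 lost a call under an alternative and 0 of the called ones changed sign.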
